A study of Mus musculus with 6 samples.

Results

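The genes described here are the parts of the cellular oxygen sensor, chosen by gene symbol as 10 of the 55487 genes in the count table. They comprise the HIF alpha subunits *Hif1a*, *Epas1* and *Hif3a*, the beta subunits *Arnt* and *Arnt2*, the prolyl hydroxylases *Egln1*, *Egln2* and *Egln3*, the asparaginyl hydroxylase *Hif1an* and the ubiquitin ligase subunit *Vhl*. RNA sequencing had been performed on mouse pulmonary artery smooth muscle cells (mPASMCs), commercially obtained cells of the vessel wall, that had received either an siRNA against the long noncoding RNA *Snhg18* (si-*Snhg18*) or a negative control siRNA (si-NC). Each group held 3 libraries with the repeat numbers 1 to 3, all from cells of the same type, and no further allele or agent is named in the labels. At what oxygen level and how long after transfection the cells were harvested is not given in the sources used here. The labels do not say that the 3 libraries of a group came from separate cultures, so p-values measure the spread between these libraries, which may be technical.

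Hypoxia-inducible factor (HIF) is a dimer of an oxygen-regulated alpha subunit and a stable beta subunit. With oxygen present, the prolyl hydroxylases modify the alpha subunit, Vhl binds the modified form as part of a ubiquitin ligase, and the protein is degraded, while Hif1an modifies an asparagine and thereby blocks the recruitment of coactivators. Regulation of the alpha subunits thus acts largely on the protein, and the measurements here are of mRNA only. In pulmonary arteries, both HIF-1 and HIF-2 (whose alpha subunit is encoded by *Epas1*) are known for their part in the vascular response to chronic hypoxia, and *Egln1* and *Egln3* are themselves known HIF target genes.

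The libraries held between 18097718 and 25988746 counted reads, and a count of 3 reads, the smallest level taken as visible, equals between 0.115 and 0.166 CPM (read counts scaled to equal library size), for counting error only. *Snhg18* itself averaged 22.7 ± 0.711 CPM with the control siRNA against 10.6 ± 0.59 CPM with the siRNA that targets it (SD, n = 3 each), so the targeted RNA went the way of the labels. The smooth muscle markers *Acta2* and *Tagln* were abundant, with 867 and 684 CPM on average in si-NC cells, and *Pdgfra*, listed as a fibroblast marker, was at 477 CPM. The fibroblast list summed to between 515 and 584 CPM in si-NC libraries and between 376 and 507 CPM in si-*Snhg18* libraries. Of its 6 genes, 3 were higher and 3 lower after knockdown. An adjusted p under 0.05 was reached by 0 of them, and by 1, lower, when blocked on the replicate number (edgeR). The endothelial list summed to between 13.3 and 15.6 CPM in si-NC libraries, mostly *Cdh5* (9.64 CPM), with *Pecam1* at 0.333 CPM, and the leukocyte list to between 9.11 and 11.96 CPM, mostly *Csf1r* (5.96 CPM), with *Ptprc* at 0.199 CPM. The epithelial list, nearly all *Krt18*, summed to between 7.24 and 22.7 CPM in si-NC libraries and between 1.19 and 7.42 CPM in si-*Snhg18* libraries (*Krt18* adjusted p = 0.226, and 0.00216 when blocked on the replicate number, edgeR). The 7 smooth muscle markers summed to between 1748 and 1895 CPM in si-NC libraries and between 1200 and 1850 CPM in si-*Snhg18* libraries. Of these 7 markers, 6 were lower after knockdown and 1, *Tagln*, passed the test (adjusted p = 0.0427, edgeR). Over all tested genes 7.36% passed in either direction and 3.71% as lower. With the block 4 markers passed, all lower, against 27.2% of all tested genes in either direction and 13.6% as lower. The 4 markers were *Tagln*, *Cnn1*, *Myh11* and *Des*. In bulk samples, fewer cells of a type and less RNA per cell cannot be told apart, and the part of these markers in the results below was not tested. The libraries numbered 2 stood apart from the others of their own group in many genes, and the values of each sensor gene without them are given where leaving them out moved its call or its size.

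The genes were placed on GRCm38 as follows. *Hif1a* (ENSMUSG00000021109) is on chromosome 12 from 73901375 to 73947530 and *Egln3* (ENSMUSG00000035105) on the same chromosome from 54178981 to 54203860. *Egln1* (ENSMUSG00000031987) is on chromosome 8 from 124908587 to 124949324 and *Hif1an* (ENSMUSG00000036450) on chromosome 19 from 44562850 to 44576274. *Epas1* (ENSMUSG00000024140) is on chromosome 17 from 86753700 to 86833410, *Arnt* (ENSMUSG00000015522) on chromosome 3 from 95434388 to 95497240 and *Vhl* (ENSMUSG00000033933) on chromosome 6 from 113623959 to 113631633. *Hif3a* (ENSMUSG00000004328), *Egln2* (ENSMUSG00000058709) and *Arnt2* (ENSMUSG00000015709) are on chromosome 7, starting at 17031507, 27158658 and 84246278. An antisense gene, *Gm15283*, overlaps *Hif1a* and had between 7 and 14 reads per library, and *Gm30873*, antisense to *Arnt2*, had between 5 and 61. The strand setting of the counting is not given in the sources used here, so these reads cannot be assigned with certainty, although they are few beside those of *Hif1a*.

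HIF binds DNA at the core sequences ACGTG and GCGTG, and several genes of the oxygen sensor are themselves targets. Promoter windows of 300 bases, from 250 bases before to 50 after the RefSeq start on GRCm38.p6, were found for 9 of the 10 genes, with *Epas1* as the exception. The *Hif1a* window lies inside the gene as the file bounds it, since 1 GENCODE transcript starts at 73901375, and 2 of its 5 transcripts start within the window, at 73907904. On either strand, ACGTG was present in 19.6% and GCGTG in 32.4% of 32851 mouse windows of this length, and at least 1 of them in 43.8%. Among the oxygen sensor genes, 6 of the 9 had at least 1 of them, namely *Hif1a*, *Hif3a*, *Arnt*, *Egln1*, *Egln2* and *Egln3*. Since *Egln2* has 2 windows, this is 7 of 10 when counted by window, as the shares of all windows are. The windows of *Arnt2*, *Hif1an* and *Vhl* had neither. Shown here are the windows of *Hif1a* and *Egln1*, the most abundant pair, and of *Egln3* and *Hif1an*. The latter are the sensor genes whose rise after knockdown had an adjusted p under 0.05 without the block (edgeR). Each window is written 5′ to 3′ in the direction of the gene with the cores in capitals.
*Hif1a* promoter, chr12:73907617-73907916, plus strand: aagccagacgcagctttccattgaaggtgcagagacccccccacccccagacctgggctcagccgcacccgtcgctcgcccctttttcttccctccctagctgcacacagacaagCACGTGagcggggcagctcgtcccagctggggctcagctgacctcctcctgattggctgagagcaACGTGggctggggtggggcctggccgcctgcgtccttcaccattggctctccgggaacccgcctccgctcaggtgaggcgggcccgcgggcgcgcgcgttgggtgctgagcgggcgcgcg
*Egln1* promoter, chr8:124949205-124949504, minus strand: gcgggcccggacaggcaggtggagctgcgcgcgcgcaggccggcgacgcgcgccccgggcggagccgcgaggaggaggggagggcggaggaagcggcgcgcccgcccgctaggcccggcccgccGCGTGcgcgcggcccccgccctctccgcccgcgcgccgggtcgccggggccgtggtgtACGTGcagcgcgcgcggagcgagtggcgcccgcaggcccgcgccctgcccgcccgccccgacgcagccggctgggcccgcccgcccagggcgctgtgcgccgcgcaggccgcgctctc
*Egln3* promoter, chr12:54203825-54204124, minus strand: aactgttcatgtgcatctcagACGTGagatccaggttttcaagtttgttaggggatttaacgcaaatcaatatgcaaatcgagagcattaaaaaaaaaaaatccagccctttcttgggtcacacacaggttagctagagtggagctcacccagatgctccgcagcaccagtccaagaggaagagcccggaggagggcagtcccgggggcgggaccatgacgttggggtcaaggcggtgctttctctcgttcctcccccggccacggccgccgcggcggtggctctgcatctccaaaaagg
*Hif1an* promoter, chr19:44562604-44562903, plus strand: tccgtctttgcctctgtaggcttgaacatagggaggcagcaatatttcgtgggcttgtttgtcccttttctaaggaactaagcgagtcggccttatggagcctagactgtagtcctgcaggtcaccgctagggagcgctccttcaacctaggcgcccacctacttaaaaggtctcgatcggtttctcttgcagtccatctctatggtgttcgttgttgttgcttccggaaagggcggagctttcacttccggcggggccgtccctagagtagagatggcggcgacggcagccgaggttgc
In the *Hif1a* window the first capitals hold CACGTG, in which ACGTG reads on both strands, at position -135 from the start, and a further ACGTG is at -70. The *Egln1* window has GCGTG at -126 and ACGTG at -68, and the *Egln3* window has 1 ACGTG at -229. These matches describe the letters only, since binding was not measured.

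Levels were first compared between genes as TPM, which divides the counts by the exon length before scaling. In si-NC cells *Egln1*, the main hydroxylase of HIF alpha in most cells, was at 287 ± 36.5 TPM and *Hif1a* at 286 ± 74.1 TPM (SD, n = 3 each). The ranges of these genes overlapped, and *Egln1* was the higher of the 2 in 1 of 3 si-NC libraries. Then followed *Egln3* at 107 ± 8.40 TPM, *Egln2* at 69.1 ± 3.32 TPM, *Arnt* at 39.0 ± 0.492 TPM and *Vhl* at 29.7 ± 2.36 TPM (SD, n = 3 each). *Hif1an* was at 17.5 ± 0.556 TPM, *Arnt2* at 9.01 ± 4.10 TPM, *Epas1* at 2.43 ± 0.154 TPM and *Hif3a* at 0.687 ± 0.342 TPM (SD, n = 3 each). Below the leading pair, each gene was above the next in all 3 si-NC libraries without overlap. In si-*Snhg18* cells the order was the same except that *Hif1a* stood above *Egln1* on average, again with overlapping ranges, and that the ranges of *Arnt2* and *Epas1* overlapped.

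**Figure D1:**
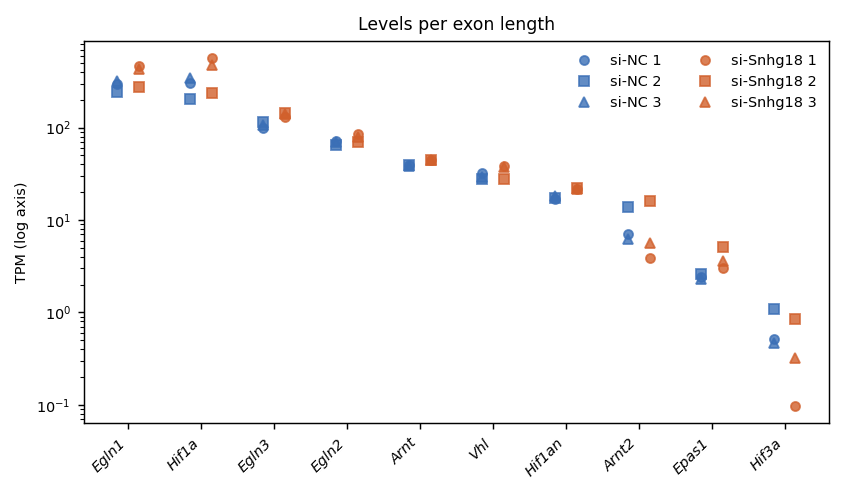
Level of each gene per exon length (TPM, log axis) in each of the 6 libraries, blue for si-NC and orange for si-*Snhg18*, with the symbol giving the library number. *Hif1a* and *Egln1* lead in every library and *Hif3a* is lowest in every library.

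Among the alpha subunits the mRNA of these cells was nearly all *Hif1a*. In libraries 1 to 3, *Hif1a* took 99.1%, 98.2% and 99.2% of the summed TPM of the 3 alpha subunits for si-NC, and 99.4%, 97.6% and 99.2% for si-*Snhg18*. *Epas1*, which encodes HIF-2 alpha and is best known from endothelial cells, took 0.892% ± 0.314 in si-NC cells and 1.12% ± 0.828 in si-*Snhg18* cells (SD, n = 3 each). The summed TPM of the alpha subunits was between 3.92 and 7.85 times that of *Arnt* and *Arnt2* in si-NC libraries, and between 4.01 and 11.9 times in si-*Snhg18* libraries. The lowest ratio of each group was in library 2.

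The clearest changes after knockdown were in a pair of hydroxylases. *Egln3*, the prolyl hydroxylase most strongly induced by hypoxia in many cells, was at 112, 128 and 122 CPM in si-NC libraries 1 to 3, and at 153, 156 and 160 CPM in si-*Snhg18* libraries 1 to 3. All si-*Snhg18* libraries were above all si-NC libraries. It rose 1.29-fold, by 0.37 on the log2 scale (SE 0.07), at an adjusted p of 0.0331 in edgeR's quasi-likelihood test. *Hif1an*, the asparaginyl hydroxylase also called FIH, was at 44.9, 45.3 and 47.9 CPM in si-NC libraries and at 60.4, 57.3 and 57.4 CPM in si-*Snhg18* libraries. Its groups did not overlap either, and the libraries of each group lay close together. It rose 1.27-fold, by 0.34 on the log2 scale (SE 0.07), at an adjusted p of 0.0375 in the same test. Both genes were higher in all 3 same-numbered pairs, which was also so for 29.6% of all tested genes. Their calls were not stable. Of the 17 alternative settings, 11 called *Egln3* and 10 called *Hif1an*. Among these were DESeq2 (adjusted p = 0.000642 and 0.00168), limma-voom (0.0355 and 0.0385) and the replicate block (0.0047 and 0.0114, edgeR). With no filter on low counts the adjusted p was 0.0552 for *Egln3* and 0.0962 for *Hif1an*, and with all libraries thinned to the smallest total it was 0.0589 for *Hif1an* (edgeR). When single libraries were left out, the log2 fold change of *Egln3* stayed between 0.32 and 0.42, but its adjusted p passed 0.05 only without si-*Snhg18* 2 (0.0237), and was 0.162 without si-NC 1, 0.0799 without si-NC 2, 0.142 without si-NC 3, 0.0776 without si-*Snhg18* 1 and 0.159 without si-*Snhg18* 3 (edgeR). Likewise *Hif1an* stayed between 0.32 and 0.37, with an adjusted p of 0.0225 without si-*Snhg18* 2 and between 0.1 and 0.188 without any of the others (edgeR). In the fits without si-NC 1, si-NC 3 or si-*Snhg18* 3, 0 of all tested genes passed.

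The other prolyl hydroxylases did not pass. *Egln1* was at 459, 371 and 488 CPM in si-NC libraries 1 to 3 and at 745, 411 and 657 CPM in si-*Snhg18* libraries 1 to 3. Libraries 1 and 3 of the si-*Snhg18* group were above every si-NC library, while library 2 lay within the si-NC range. The log2 fold change was 0.46 with an SE of 0.23 (adjusted p = 0.269 in edgeR's quasi-likelihood test), with a 95% interval for this gene alone from -0.08 to 1.00. *Egln2*, the least oxygen-responsive member of the family, was at 65.3, 57.9 and 63.0 CPM and then at 80.9, 60.9 and 70.0 CPM in libraries 1 to 3 of each group. Again only library 2 of the si-*Snhg18* group fell among the controls, and the log2 fold change was 0.19 with an SE of 0.12 (adjusted p = 0.37 in the same test). With the replicate number as a block, *Egln1* passed at a log2 fold change of 0.43 (adjusted p = 0.0188, edgeR) and *Egln2* did not (0.0994). Leaving out libraries moved *Egln1* both ways, to 0.67 without si-*Snhg18* 2 (adjusted p = 0.0177, passed) and to 0.28 without si-*Snhg18* 1 (adjusted p = 0.545, edgeR). Without both libraries numbered 2 it was 0.56 and passed (adjusted p = 0.00305, edgeR). *Egln2* did not pass in these fits, at 0.28 without si-*Snhg18* 2, 0.23 without both libraries numbered 2 and 0.08 without si-*Snhg18* 1.

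*Hif1a*, the alpha subunit that carries most of the HIF mRNA in these cells, varied more between libraries than any hydroxylase. It was at 578, 376 and 656 CPM in si-NC libraries 1 to 3 and at 1103, 432 and 887 CPM in si-*Snhg18* libraries 1 to 3. The values show that si-*Snhg18* was higher in each same-numbered pair and that both libraries numbered 2 were lowest in their group. The pairs differed by 0.93, 0.20 and 0.44 on the log2 scale. Without the block the log2 fold change was 0.59 with an SE of 0.36 (adjusted p = 0.362 in edgeR's quasi-likelihood test), with a 95% interval for this gene alone from -0.28 to 1.46. Blocking on the replicate number gave 0.52 (SE 0.13), which passed (adjusted p = 0.021, edgeR). The value depended on single libraries. It was 0.89 without si-*Snhg18* 2 (adjusted p = 0.0387) and 0.69 without both libraries numbered 2 (adjusted p = 0.00526), but 0.39 without si-NC 2 (adjusted p = 0.656) and 0.30 without si-*Snhg18* 1 (adjusted p = 0.709, edgeR).

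*Epas1* was at 5.70, 6.00 and 5.42 CPM in si-NC libraries 1 to 3 and at 7.48, 11.5 and 8.49 CPM in si-*Snhg18* libraries 1 to 3, from between 128 and 299 reads per library. The groups did not overlap, and unlike *Hif1a*, *Epas1* was highest in library 2 of each group. Its log2 fold change was 0.68 (standard error 0.19), but its adjusted p was 0.088 in edgeR's quasi-likelihood test. DESeq2 called it without the block (adjusted p = 0.0206) and with it (adjusted p = 0.025). Blocking on the replicate number gave 0.66, which passed (adjusted p = 0.0208, edgeR), but the call was lost when both libraries numbered 2 were left out, at 0.51 with the block (adjusted p = 0.0962) and without it (adjusted p = 0.0569). Without si-*Snhg18* 2 alone it was 0.48 (adjusted p = 0.0692, edgeR). *Hif3a*, whose product can act as a restraint on the other alpha subunits, was low, with 33, 71 and 30 reads in si-NC libraries and 7, 58 and 16 reads in si-*Snhg18* libraries. It was lower in each same-numbered pair, and library 2 was again apart from the rest, with the most reads in both groups. Its log2 fold change of -0.71 had a standard error of 0.72 (adjusted p = 0.578), and it did not pass with the block (adjusted p = 0.147, edgeR). Single libraries moved it from -0.24 without si-*Snhg18* 1 and -0.25 without si-NC 2 to -1.75 without si-*Snhg18* 2, with no call, and without both libraries numbered 2 it was -1.29 (adjusted p = 0.127, edgeR).

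**Figure D2:**
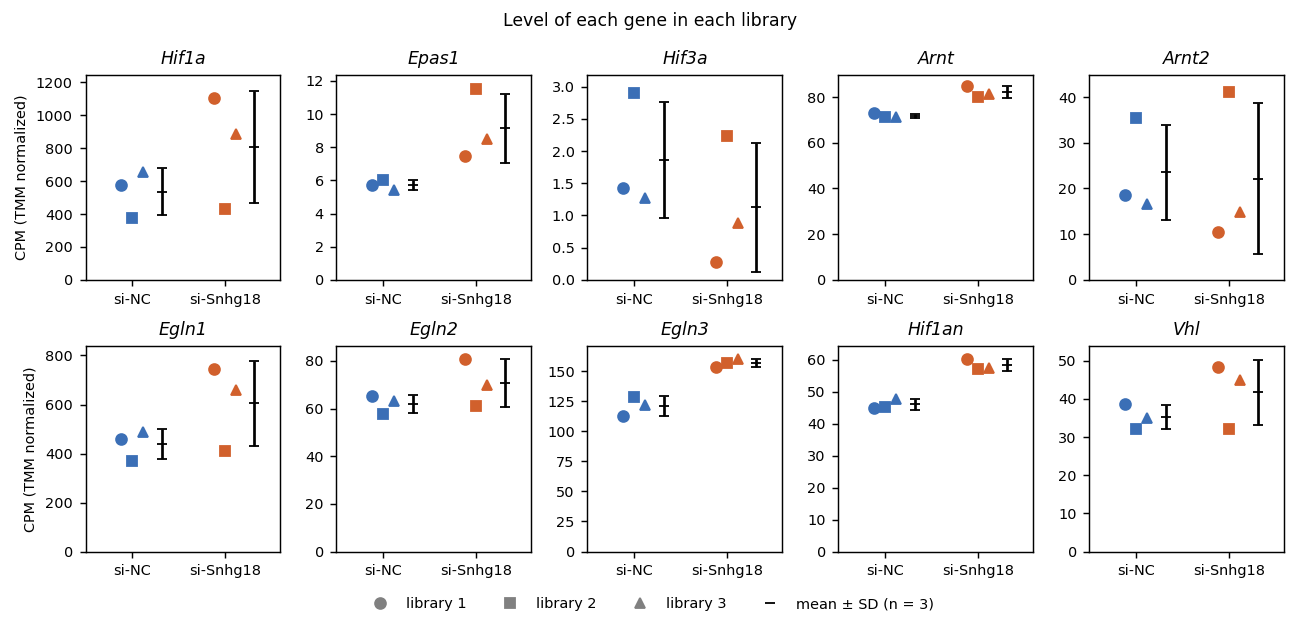
TMM-normalized CPM of each gene in each library (points, symbol by library number) with the mean and SD of each group (bars, n = 3), every axis from 0. The groups are separate for *Epas1*, *Arnt*, *Egln3* and *Hif1an*, and overlap for the other 6 genes. Library 2 (squares) is the lowest or the highest of both groups for every gene but *Egln3* and *Hif1an*.

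Of the beta subunits, *Arnt* (HIF-1 beta), the general partner of bHLH-PAS factors, was among the steadiest genes. It was at 72.9, 71.3 and 71.4 CPM in si-NC libraries 1 to 3 and at 84.9, 79.9 and 81.5 CPM in si-*Snhg18* libraries 1 to 3. The groups did not overlap, and they differed by 0.19 on the log2 scale (SE 0.06), at an adjusted p of 0.113 in edgeR's quasi-likelihood test. When the block was added, the same fold change passed (adjusted p = 0.0463, edgeR), the only 1 of the 17 alternative settings to call *Arnt*. It did not pass in DESeq2 with the block (adjusted p = 0.166) or with the block and both libraries numbered 2 left out (adjusted p = 0.107, edgeR). *Arnt2*, best known from neurons, was at 18.6, 35.4 and 16.6 CPM and then at 10.6, 41.0 and 14.9 CPM in libraries 1 to 3 of each group. Library 2 was the highest of each group, and the same-numbered pairs did not share a direction. The log2 fold change was -0.08 with an SE of 0.55 (adjusted p = 0.944 in the same test), and it turned positive without si-NC 2 (0.33), without si-*Snhg18* 1 (0.25) or without si-*Snhg18* 3 (0.13), with no call in any of the 17 alternative settings. Without both libraries numbered 2 it was -0.48 (adjusted p = 0.0836), and without si-*Snhg18* 2 alone -0.90 (adjusted p = 0.121, edgeR).

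*Vhl*, the part of the ubiquitin ligase that recognizes hydroxylated HIF alpha, was at 38.6, 32.2 and 35.0 CPM in si-NC libraries 1 to 3 and at 48.2, 31.99 and 44.9 CPM in si-*Snhg18* libraries 1 to 3. Libraries 1 and 3 were higher after knockdown and library 2 was level with its control, differing by -0.01 on the log2 scale. The log2 fold change was 0.24 with an SE of 0.17 (adjusted p = 0.416 in edgeR's quasi-likelihood test), and *Vhl* did not pass with the block (adjusted p = 0.121). Without both libraries numbered 2 it was 0.34 and passed (adjusted p = 0.0297, edgeR), and without si-*Snhg18* 2 alone it was 0.40 (adjusted p = 0.0376, edgeR). Without si-*Snhg18* 1 it was 0.12 (adjusted p = 0.749, edgeR).

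All 10 genes had enough reads to be tested, 8 higher and 2 lower after knockdown, with a median log2 fold change of 0.29 against 0.01 over all 14531 tested genes. An adjusted p under 0.05 was reached by 2 of the 10, both higher, where 7.36% of all tested genes reached it in either direction, 3.65% as higher and 3.71% as lower. Neither changed by 1.5-fold. An unadjusted p under 0.05 was reached by 4, against 24.9% of all genes, and the groups did not overlap for 4, all higher, against 30.9% of all genes in either direction and 15.4% as higher. With the replicate number as a block 6 passed, all higher (*Hif1a*, *Epas1*, *Arnt*, *Egln1*, *Egln3* and *Hif1an*), against 27.2% of all genes in either direction and 13.6% of all genes as higher. Of these, *Epas1* also was at least 1.5-fold higher, as were 4.24% of all genes. With both libraries numbered 2 left out, 5 passed, namely *Hif1a*, *Egln1*, *Egln3*, *Hif1an* and *Vhl*, all higher, against 27.6% of all genes in that setting and 13.7% as higher. The direction was the same in all 17 alternative settings for every gene but *Arnt2*. As single values, the 4 genes without overlap had an exact two-sided permutation p of 0.1, the smallest that 3 libraries against 3 can give.

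**Figure D3:**
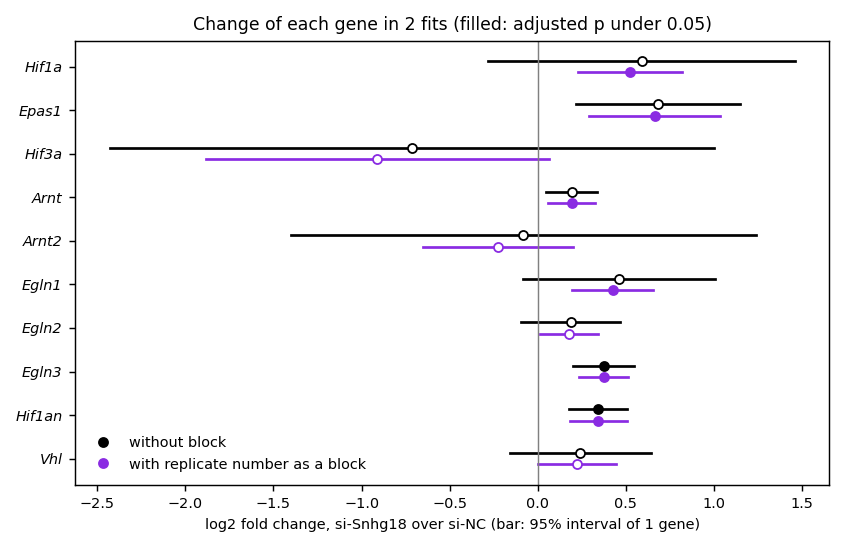
Log2 fold change of each gene with its 95% interval, without (black) and with (violet) the replicate number as a block, filled where the adjusted p over all genes was under 0.05. *Egln3* and *Hif1an* are filled in both fits, while the intervals of *Hif1a*, *Hif3a* and *Arnt2* shorten most with the block.

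The genes fell into sets by how they varied over the 6 libraries. The variance of log2 CPM was divided into a part between siRNAs, a part between replicate numbers and the rest. Between siRNAs lay 95.2% for *Hif1an*, 92.3% for *Arnt*, 90.9% for *Egln3* and 75.2% for *Epas1*, where the median over all tested genes was 31.6%. Between replicate numbers lay 87.3% for *Arnt2*, 68.9% for *Hif1a*, 62.4% for *Vhl*, 59.9% for *Hif3a*, 57.8% for *Egln2* and 54.9% for *Egln1*, where the median over all genes was 43.2%. A large part between numbers was common in these libraries. *Hif1a* and *Egln1*, the substrate and its hydroxylase, had the same order of libraries, which was si-*Snhg18* 1, si-*Snhg18* 3, si-NC 3, si-NC 1, si-*Snhg18* 2 and si-NC 2 from high to low. *Egln2* differed from it only in that si-NC 1 stood above si-NC 3. *Arnt2* and *Hif3a* ran nearly opposite, with both libraries numbered 2 on top and si-*Snhg18* 1 lowest.

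**Figure D4:**
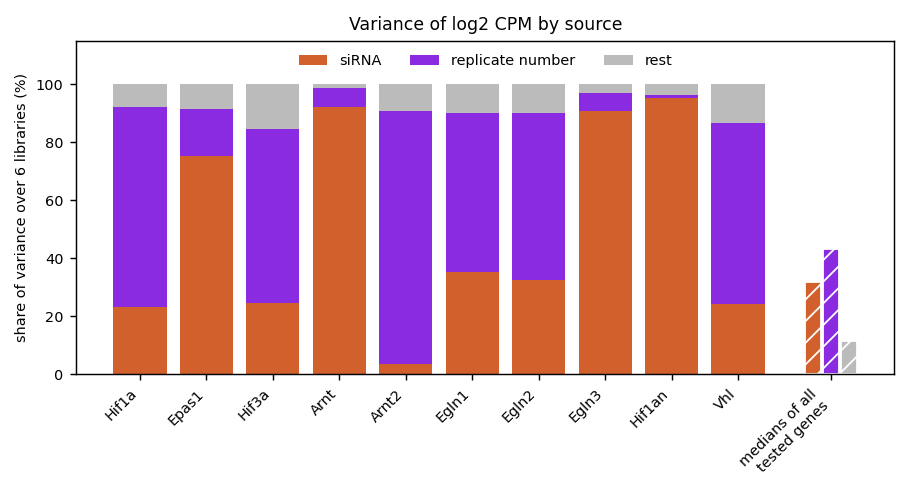
Share of the variance of log2 CPM over the 6 libraries (percent) that lies between the siRNAs, between the replicate numbers and in the rest, for each gene, with the medians over all tested genes as hatched bars. *Arnt*, *Egln3* and *Hif1an* are at 90.9% or more between siRNAs, and *Arnt2* is at 87.3% between numbers.

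The balance within each part of the sensor was compared as shares of TPM. In libraries 1 to 3, *Egln3* held 21.0%, 26.96% and 21.7% of the prolyl hydroxylase TPM for si-NC, and 19.0%, 29.1% and 21.8% for si-*Snhg18*. The groups overlapped, and the means of 23.2% ± 3.26 and 23.3% ± 5.22 (SD, n = 3 each) were close together (exact two-sided permutation p = 0.9). *Arnt2* held 18.4% ± 6.53 of the beta subunit TPM in si-NC cells and 15.3% ± 9.85 in si-*Snhg18* cells (SD, n = 3 each, exact permutation p = 0.6). The *Epas1* share given above differed by 0.227 percentage points (exact permutation p = 0.9). Adjusted over these 3 comparisons, each p was 0.9, and in all of them the highest share of each group was in library 2. Such tests at this size could not go below 0.1.

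Proteins that act with the sensor were examined as fixed lists, and their changes were few. Over the 5 lists together 6 of 110 tested genes passed, 2 higher and 4 lower, which is near the 7.36% of all genes, and with the block 27 of 110 passed, near the 27.2% of all genes. Of 19 partners of HIF stability, 11 were higher and 8 lower, with a median log2 fold change of 0.01. Against 3.71% of all genes as lower, 2 of the 19 passed, both lower. These were *Cul2* and *Nedd8*, while the other subunits of the Vhl ligase on the list did not pass, with log2 fold changes of 0.01 for *Elob*, -0.01 for *Eloc* and 0.10 for *Rbx1*. *Cul2*, the scaffold of the Vhl ligase, was at 48.4, 53.6 and 49.2 CPM in si-NC libraries and at 32.4, 29.9 and 30.1 CPM in si-*Snhg18* libraries. The groups were well apart, and it changed by -0.71 on the log2 scale (SE 0.08), at an adjusted p of 0.00989 in edgeR's quasi-likelihood test. *Nedd8*, the small protein that activates cullins when attached to them, was at 64.3, 58.2 and 62.7 CPM and then at 44.4, 42.0 and 42.0 CPM, and changed by -0.53 on the log2 scale (SE 0.07), at an adjusted p of 0.015 in the same test. Both calls were lost on leaving out si-NC 1 (adjusted p = 0.071 for *Cul2* and 0.111 for *Nedd8*), si-NC 3 (0.0758 and 0.101) or si-*Snhg18* 3 (0.0827 and 0.0994, edgeR). In these fits 0 of all tested genes passed, so the losses are not particular to *Cul2* and *Nedd8*. Both genes passed without si-NC 2 (adjusted p = 0.048 and 0.0487) and without si-*Snhg18* 1 (0.0329 and 0.0448, edgeR). *Fbxw7*, a subunit of another ubiquitin ligase, had a log2 fold change of 0.49 and the smallest p of those that were higher (adjusted p = 0.0842, and 0.0263 with the block, edgeR).

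Among 15 tested coactivators and chromatin partners, 11 were higher and 4 lower, with a median log2 fold change of 0.19. Of these 1 passed, against 7.36% of all genes in either direction. This was *Smarca4*, the ATPase of the SWI/SNF remodeler, which rose from 265 ± 4.32 to 342 ± 16.7 CPM (SD, n = 3 each, log2 fold change 0.37, adjusted p = 0.0263 in edgeR's quasi-likelihood test). Of the lower genes, *Sp1* had the smallest p, at -0.19 on the log2 scale (adjusted p = 0.206). With the block 4 of these genes passed, all higher, against 27.2% of all genes in either direction and 13.6% as higher. Among 13 tested bHLH-PAS proteins other than the HIF subunits (the coactivator *Ncoa3* included), 7 were higher and 6 lower. The circadian repressor *Per2* rose from 4.12 ± 0.235 to 6.66 ± 0.362 CPM (SD, n = 3 each, log2 fold change 0.69, adjusted p = 0.0414 in the same test), and the lower gene of smallest p, *Arntl2*, was at -0.50 (adjusted p = 0.428). With the block 3 of these 13 passed, all higher, against the same shares of all genes. *Smarca4* and *Per2* each lost the call in the 5 fits that left out a library other than si-*Snhg18* 2, with adjusted p-values from 0.0717 to 0.147 for *Smarca4* and from 0.0973 to 0.172 for *Per2* (edgeR). Of these fits, those without si-NC 1, si-NC 3 or si-*Snhg18* 3 called 0 of all tested genes. *Per2* also lost the call with no filter on low counts (adjusted p = 0.095) and with the block and both libraries numbered 2 left out (adjusted p = 0.0598, edgeR).

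HIF target genes gave no common direction. Of 19 glycolytic targets, 13 were higher and 6 lower. Of these 0 passed in edgeR's quasi-likelihood test, against 7.36% of all tested genes. An unadjusted p under 0.05 was reached by 2, against 24.9% of all tested genes. DESeq2 and limma-voom also called 0 of them, where they called 2124 and 1036 of all tested genes. The median log2 fold change was 0.05. The smallest p-values were those of *Pfkfb4* (log2 fold change 0.36, adjusted p = 0.142) and of the glucose transporter *Slc2a3* (-0.84, adjusted p = 0.16). With the block 3 of the 19 passed, 2 higher and 1 lower, against 27.2% of all genes in either direction. The lower gene was *Slc2a3* (adjusted p = 0.00385, edgeR). With both libraries numbered 2 left out 6 passed, against 27.6% of all genes in that setting. Of 44 other targets, 25 were higher and 19 lower, with a median log2 fold change of 0.04. Without the block 2 of them passed, both lower, against 3.71% of all genes as lower. *Ndufa4l2*, a mitochondrial protein known as a HIF-1 target, was at 70.8, 102 and 77.7 CPM in si-NC libraries and at 19.98, 31.99 and 23.3 CPM in si-*Snhg18* libraries. This was the largest change of all the list genes that passed (log2 fold change -1.73 with an SE of 0.21, adjusted p = 0.0119 in edgeR's quasi-likelihood test). *Adm*, which encodes the vasodilator adrenomedullin, was at 516, 476 and 504 CPM and then at 365, 367 and 406 CPM, and changed by -0.39 on the log2 scale (SE 0.07), at an adjusted p of 0.031 in the same test. *Kdm4b*, a histone demethylase, was the higher gene of smallest p, at 0.68 (adjusted p = 0.0617, and 0.00196 with the block, edgeR). With the block 14 of the 44 passed, 5 higher and 9 lower, against 27.2% of all genes in either direction and 13.6% each as higher and as lower. *Egln3* and *Ndufa4l2*, both known HIF targets, went opposite ways in the same libraries. On leaving out si-NC 1, si-NC 3 or si-*Snhg18* 3, *Ndufa4l2* had adjusted p-values of 0.0659, 0.0755 and 0.0889 (edgeR). In these fits 0 of all tested genes passed, and *Ndufa4l2* passed on leaving out any other library. Among the fits without 1 library, *Adm* passed only without si-*Snhg18* 2 (0.0227), with values up to 0.163 otherwise (edgeR).

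**Figure D5:**
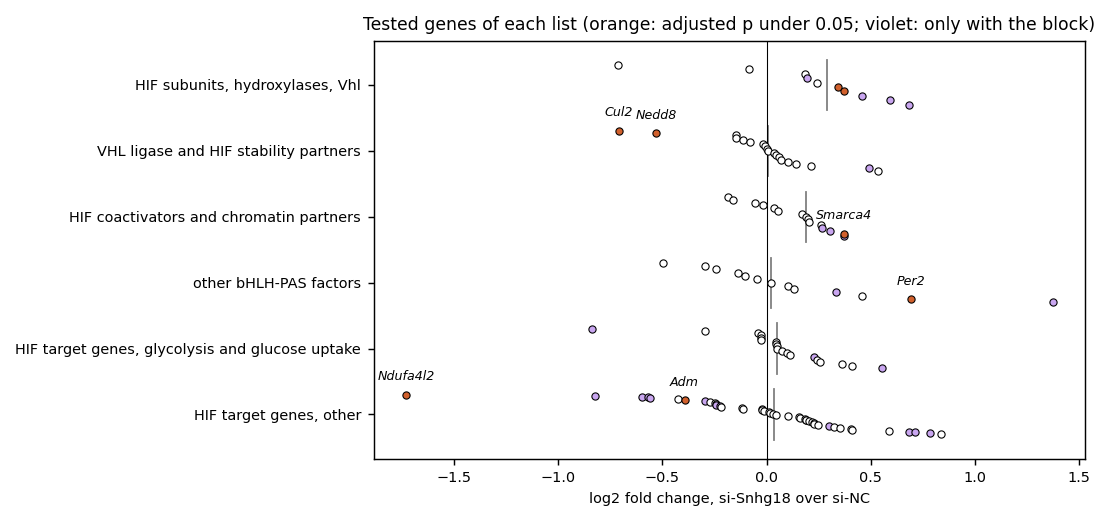
Log2 fold change of every tested gene of the oxygen sensor and of each fixed list (1 point a gene, grey line at the median), orange where the adjusted p was under 0.05 and violet where it was so only with the block. The 5 lists have medians between 0.01 and 0.19, and *Ndufa4l2* at -1.73 lies farthest to the left.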

How the data were processed

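The authors sequenced stranded mRNA libraries (TruSeq Stranded mRNA kit) and deposited a table of raw read counts for each gene, not normalized, together with the exon length and GRCm38 position of each gene. The submitters' processing notes name HISAT2 and mm10, and the counting program and its strand setting are not given in the sources used here. Groups and repeat numbers were taken from the labels, and 0 columns belonged to other samples.

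The analysis used edgeR 4.0.16 under R 4.3.3. After filterByExpr (minimum count 10) and TMM scaling, the quasi-likelihood test (glmQLFit, then glmQLFTest) was run on the 14531 remaining genes, and p-values were adjusted over all of them by Benjamini-Hochberg. Intervals are at 95% for single genes. CPM values carry TMM factors, log2 CPM a prior count of 2, and TPM was computed from the counts and exon lengths without TMM. Of duplicate symbols the row with more reads was used. Totals ranged from 18097718 to 25988746 reads. DESeq2 1.42.0, limma-voom (limma 3.58.1), RLE factors, library totals, other filters, a replicate block and leaving out each library were alternatives, and 4 more were chosen after seeing the data, which were DESeq2 with the block, leaving out both libraries numbered 2 with and without the block, and thinning to 18097718 reads. Only the planned edgeR fit was tested on simulated data. The simulated libraries were independent, had no structure by replicate number, and held planted changes larger than those of the sensor genes in the planned fit. The alternatives were not simulated.

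The study does not say that equal repeat numbers share a culture, so the planned fit has no block. Deviations from the group means were compared within the pairs numbered 1 to 3, for which r across genes was 0.41, 0.742 and 0.359. Libraries of unlike number were not compared, and the deviations within a group cancel out. Libraries numbered 2 that stand apart in both groups therefore raise r in the other pairs too. The check thus cannot show that equal numbers pair the libraries. Blocked values are given as an alternative beside the sensor and named genes whose call they change. The genes and lists were chosen with earlier results of these data known. Named genes were all 10 genes of the sensor, *Snhg18*, up to 4 passing genes in each direction of each list or, where none passed, the 1 of smallest p, marker genes, and for each sensor gene of mean log2 CPM 1 or more the gene most alike over the libraries, which is not reported here for *Egln2* and *Epas1*. The markers and other genes named with the block fall outside this rule.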

Additional observations from a re-analysis of the deposited data

How the results depend on the processing

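The number of oxygen sensor genes with an adjusted p under 0.05, 2 in the planned fit, was 0 without a filter on low counts, 6 with the replicate block, 5 in DESeq2 with the block, 5 with both libraries numbered 2 left out, 5 when these were left out with the block, and 1 after thinning. The settings without a block that kept all 6 libraries and their depth gave within 1.5 times the planned count, except the absent filter. Leaving out single libraries gave 5 without si-*Snhg18* 2 and 0 without any other, where 3 or 4 had an unadjusted p under 0.05 (4 without the filter). Over all genes the count of 1069 became 2124 in DESeq2, 3954 with the replicate block, 3166 in DESeq2 with the block, 4020 without both libraries numbered 2, 3504 without them and with the block, and between 0 and 3282 when single libraries were left out. It was 0 without si-NC 1, si-NC 3 or si-*Snhg18* 3, where 2512, 2731 and 2464 genes had an unadjusted p under 0.05 (edgeR). The genes tested in these fits were 14950, 14943 and 14851. Without si-NC 2 the count was 158, and 2763 of 14840 tested genes had an unadjusted p under 0.05 (edgeR). Without si-*Snhg18* 1 these values were 319 and 3013 of 14798. With no filter on low counts they were 877 and 3844 of 25015, and after thinning 1031 and 3501 of 14086. For the pathway lists the count of 6 became 11 in DESeq2, 27 with the replicate block and 26 in DESeq2 with the block. It was 38 without both libraries numbered 2, 34 without them and with the block, and between 0 and 27 without single libraries. The block changed no other call among the sensor genes than those given above. The *Egln3* share differed by -0.0716 percentage points with raw counts in place of TPM. Without single libraries the difference in share ranged from -0.247 to 0.519 for *Epas1*, from -2.83 to 2.23 for *Egln3* and from -8.66 to 0.704 for *Arnt2*, and the log2 fold change of *Arnt2* from -0.90 to 0.33. The mean difference within same-numbered pairs (the replicate block for the shares) equals the planned difference. Fits without 1 library test fewer samples, and the cause of the other shifts was not tested.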

Other observations

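For 7 of the sensor genes, the gene whose log2 CPM was most alike over the 6 libraries was sought among 11849 others of mean log2 CPM 1 or more. It was *Rnf126* for *Hif1a*, *Sesn1* for *Egln1*, *Ctcf* for *Vhl*, *Ntn4* for *Arnt2*, *Atg4b* for *Arnt*, *Phf2* for *Egln3* and *Astn2* for *Hif1an*, with Pearson's r from 0.997 to 1. With only 6 libraries that share preparation, many genes reach a high r. For *Hif1a*, 691 of the 11849 genes had an r over 0.95, and for *Egln3* 175 had. Of the alike genes, *Astn2* was higher after knockdown by 1.33 on the log2 scale (adjusted p = 0.0137, edgeR), *Phf2* by 0.36 (adjusted p = 0.0377) and *Atg4b* by 0.50 (adjusted p = 0.0264), and the other 4 did not pass. *Astn2*, *Phf2* and *Atg4b* were picked for their likeness to *Hif1an*, *Egln3* and *Arnt* over these same libraries. The variance of those sensor genes lay mostly between siRNAs, so a difference by siRNA followed from the choice and is no separate result.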
